A study of Mus musculus with 8 samples.

Results

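Chemokines and their receptors were taken as every protein-coding gene whose GRCm38 symbol begins with Ccl, Cxcl, Ccr or Cxcr and a number, together with Pf4, Ppbp, Cx3cl1, Cx3cr1, Xcl1, Xcr1 and Ackr1 to Ackr4. The rule used names alone and found 69 of the 31053 genes in the table, of which 46 encode ligands and 23 encode receptors. Of these, 62 lie on chromosomes and 7 are further copies of Ccl19, Ccl21a, Ccl21b, Ccl21c and Ccl27 on unplaced scaffolds. RNA-seq was performed on visceral white adipose tissue (vWAT) of 4 KIKO mice and 4 wild-type (WT) mice, 1 library per mouse, to ask which transcripts differ between the genotypes. KIKO (knock-in knock-out) mice serve as a model of Friedreich's ataxia and carry a knocked-in allele opposite a knocked-out allele of the targeted gene. The defect is present in all cells of the body, not in fat alone. WT mice were littermate controls. The labels give C57BL/6 as the strain of both groups, and per the study's figure legend all mice were males of 8 months. None of these mice is labelled as treated.

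Chemokines are small secreted proteins that guide leukocytes by binding G protein-coupled receptors on their surface. CC and CXC ligands are named for the spacing of their first cysteines, and many receptors take several ligands. Atypical receptors bind chemokines without G protein signalling and remove or transport them. In fat, ligands made by macrophages, endothelial cells, progenitors and adipocytes are known to draw in monocytes, lymphocytes and eosinophils.

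Libraries held 2602189 to 3478539 counts in KIKO mice and 2936515 to 3119146 counts in WT mice, and the 69 genes took 0.0945% to 0.145% of them. Levels are given as CPM, the count per library scaled to a common total with TMM factors, and a single count was worth 0.293 to 0.400 CPM. Along the first principal component WT mouse 3 lay among the KIKO mice (scores -24.0 to -4.04 in KIKO mice, -12.6 in WT mouse 3, 8.43 to 38.6 in the other WT mice). The rank correlation across genes between transcript length and each library's deviation from the mean was -0.214 to -0.0843 in KIKO mice and -0.110 to 0.262 in WT mice, with WT mouse 3 at the low end. All 10 adipocyte markers were tested and none passed. They summed to 48078 to 65323 CPM in KIKO mice and 36649 to 43310 CPM in WT mice, and without the most abundant, Cfd, to 22877 to 27007 CPM in KIKO mice and 19822 to 24686 CPM in WT mice. Of markers of epididymis epithelium, 8 of 9 were at 0.

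Of the 69 genes, 23 were detected, meaning 10 or more counts in 4 or more libraries, and the same 23 passed the filter of the edgeR test. They were 14 ligands and 9 receptors. Another 46 were not detected, and 19 of these had no count in any library. Only Pf4 passed the test at an adjusted p under 0.05 and was higher in KIKO mice. Over all 11080 genes tested 0.28% were higher at that threshold and 0.677% passed in either direction. No detected chemokine or receptor gene was lower by this test, and 22 of 23 did not pass. At an unadjusted p under 0.05 edgeR listed 4 of 23 (Pf4, Ackr3, Ccl24 and Ccl5), beside 16.2% of all genes tested. The estimated fold change was above 0 for 18 and below 0 for 5 of the 23, with a median log2 fold change of 0.13 beside -0.01 over all genes tested. In bulk tissue, fewer or more cells of a type and less or more RNA per cell cannot be told apart.

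Chemokine genes lie in clusters, and Pf4 belongs to one on chromosome 5 (90759360 to 90905938) that also holds Cxcl5, Ppbp, Cxcl3, Cxcl15, Cxcl1 and Cxcl2. Pf4 was the only detected gene of these 7. The windows below show the start of Pf4 with those of 3 neighbours that were not detected, from 250 bases before to 50 bases after the start in RefSeq, build GRCm38.p6, all on the plus strand (Pf4 chr5:90772185-90772484, Ppbp chr5:90768268-90768567, Cxcl1 chr5:90890995-90891294, Cxcl2 chr5:90903649-90903948). Capitals mark matches to 6 motifs searched on both strands. These were kappaB (GGGA, any base, then TTTCC), an interferon response element (TTTC, any pair of bases, then TTTC again), a STAT element (TTCNNNGAA), an AP-1 element (TGAGTCA), a PU.1 element (GAGGAAGT), and AGATAA, which GATA factors bind. No match of a motif in these 4 windows overlaps a match of another. The PU.1 and GATA letters were chosen with the Pf4 sequence in view.
Pf4: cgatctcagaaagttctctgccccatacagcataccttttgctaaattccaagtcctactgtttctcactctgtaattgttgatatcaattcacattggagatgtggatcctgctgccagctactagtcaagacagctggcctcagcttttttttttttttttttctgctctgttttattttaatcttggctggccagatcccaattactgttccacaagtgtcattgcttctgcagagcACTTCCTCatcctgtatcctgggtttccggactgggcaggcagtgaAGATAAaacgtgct
Ppbp: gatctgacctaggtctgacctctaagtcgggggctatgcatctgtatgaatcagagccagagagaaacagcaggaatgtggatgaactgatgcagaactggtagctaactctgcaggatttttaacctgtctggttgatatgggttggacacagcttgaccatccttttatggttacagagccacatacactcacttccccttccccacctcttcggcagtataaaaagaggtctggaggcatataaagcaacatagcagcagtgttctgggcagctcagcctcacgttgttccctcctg
Cxcl1: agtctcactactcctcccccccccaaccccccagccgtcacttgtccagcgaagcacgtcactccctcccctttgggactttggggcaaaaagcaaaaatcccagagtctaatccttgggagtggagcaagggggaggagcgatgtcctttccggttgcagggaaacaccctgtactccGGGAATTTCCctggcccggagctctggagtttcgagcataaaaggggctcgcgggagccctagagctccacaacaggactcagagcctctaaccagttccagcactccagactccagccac
Cxcl2: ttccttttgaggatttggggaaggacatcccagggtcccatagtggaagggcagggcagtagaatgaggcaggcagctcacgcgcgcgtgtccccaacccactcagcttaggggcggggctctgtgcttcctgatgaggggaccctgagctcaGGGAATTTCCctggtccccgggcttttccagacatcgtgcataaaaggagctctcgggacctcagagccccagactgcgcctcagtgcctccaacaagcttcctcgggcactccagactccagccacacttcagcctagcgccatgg

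In the Pf4 window the capitals are a PU.1 match on the minus strand at -10 to -3 and a GATA match at 37 to 42, counted from the start. PU.1 is a transcription factor of myeloid cells, and GATA factors act in megakaryocytes, mast cells and other lineages. The PU.1 letters stand in 3.2% and the GATA letters in 11.2% of all 32851 windows of this length. Neither is particular to Pf4. PU.1 letters also stood in the undetected Cxcr3, and GATA letters in 4 of 18 detected genes (Ackr1, Ccl27a, Ccr2 and Pf4) and 7 of 30 undetected genes with a window. Cxcl1 and Cxcl2, neutrophil-attracting ligands, hold a kappaB match at -71 to -62 and at -97 to -88. In Ppbp, whose product is stored in platelets beside platelet factor 4, no match was found. Windows were matched for 48 of the 62 chromosome genes. The rest were not searched, among them the detected Ccl5, Ccl11, Ccl24 and Cxcl16 and the undetected Ccl2, Ccl7 and Cxcl5. The kappaB letters stood in 0 of 18 detected and 4 of 30 undetected genes with a window (Ccr3, Cxcl1, Cxcl2 and Cxcl3), beside 0.411% of all windows. The interferon letters stood in 1 detected gene (Cxcl14) and 2 undetected genes (Ccl19 and Cxcl10), beside 3.44% of all windows. STAT letters stood in 1 detected and 3 undetected genes, beside 8.3% of windows, and AP-1 letters in 2 detected and 5 undetected genes, beside 5.2%. A match is a stretch of letters and not a measured site.

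Pf4, which encodes platelet factor 4 (CXCL4), a ligand stored in platelet granules and also made by tissue macrophages, rose in KIKO vWAT. It had 211, 179.8, 175 and 215 CPM in KIKO mice 1 to 4, against 112, 134, 133 and 124 CPM in WT mice 1 to 4. All 4 KIKO mice lay above all 4 WT mice, and the WT values were close together. Means were 195 ± 20.5 CPM in KIKO mice and 126 ± 9.95 CPM in WT mice (SD, n = 4 each), a 1.55-fold difference (log2 fold change 0.63, standard error 0.12, edgeR adjusted p = 0.0339). The exact two-sided permutation test gave p = 0.0286, the smallest that 4 against 4 mice allow. Among the 23 genes the groups did not overlap for 2, Pf4 and Ackr3, both with all KIKO mice above all WT mice. That order was found in 3.89% of all genes tested, and groups apart in either direction in 8.45%. The Pf4 call was lost in 7 of 8 fits that left out a mouse. The edgeR adjusted p was 0.122, 0.0513, 0.0501 and 0.169 without KIKO mice 1 to 4, against 0.0554, 0.103, 0.0124 and 0.118 without WT mice 1 to 4. Pf4 is on chromosome 5 (90772435 to 90773383, plus strand, ENSMUSG00000029373) and has an exon length of 721 bases. After an offset for transcript length and GC content its log2 fold change was 0.44 (edgeR adjusted p = 0.117).

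**Figure D1:**
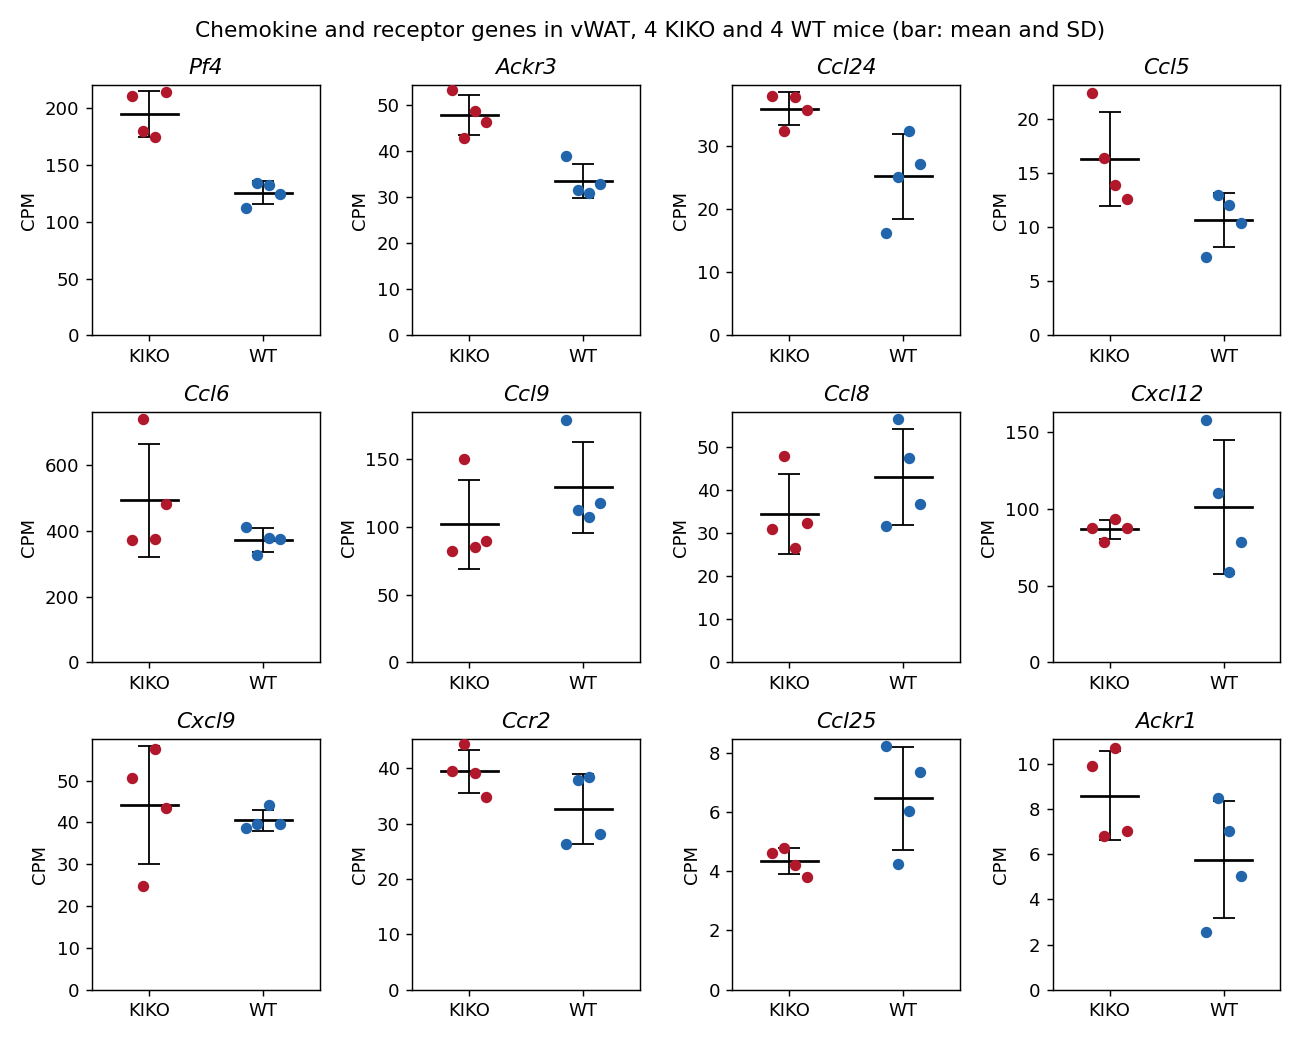
CPM (vertical axes from 0) of 12 chemokine and receptor genes in 4 KIKO mice (red) and 4 WT mice (blue). Each dot is a mouse, long bars are means and whiskers are SD. The groups are apart for Pf4 and Ackr3 and overlap for the other 10 genes.

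Since Pf4 is made by macrophages and carried by platelets, its level was set beside the markers of both. Of 24 macrophage markers tested 21 had a fold change above 0 and 3 passed (Folr2, a folate receptor of resident macrophages, Lyz2, lysozyme, and Lgals3, galectin 3), all higher in KIKO mice. The 24 summed to 2930 to 3826 CPM in KIKO mice and 2544 to 2797 CPM in WT mice, and none was at 0. Without Lyz2, the most abundant, the sums overlapped (2352 to 3121 CPM in KIKO mice and 2173 to 2534 CPM in WT mice). The log2 ratio of Pf4 to this sum was -3.89, -4.41, -4.07 and -3.92 in KIKO mice 1 to 4, against -4.62, -4.28, -4.40 and -4.36 in WT mice 1 to 4. KIKO mouse 2 lay within the WT range and the other 3 KIKO mice lay above it. The ratio averaged -4.07 ± 0.238 in KIKO mice and -4.41 ± 0.147 in WT mice (SD, n = 4 each), a difference of 0.34 that did not pass (exact permutation p = 0.114). Leaving out KIKO mouse 2, the KIKO mouse within the WT range, by itself sets the groups apart. The difference was then 0.45 (exact permutation p = 0.0286), a p that this choice fixed. With any other mouse left out it was 0.27 to 0.39 (exact permutation p = 0.114 to 0.2). With Cd68, Csf1r, Adgre1, C1qa, C1qb and C1qc alone in the sum it was 0.45 (exact permutation p = 0.0286). These 6 leave out Folr2, Lyz2 and Lgals3, the 3 markers that passed. Of 11 platelet markers 2 were tested, and neither passed. Platelet markers summed to 19.6 to 35.6 CPM in KIKO mice and 21.8 to 43.1 CPM in WT mice, with Gp1ba and Tubb1 at 0. Ppbp had 6, 4, 9 and 4 counts in KIKO mice 1 to 4, against 13, 4, 2 and 13 counts in WT mice 1 to 4.

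**Figure D2:**
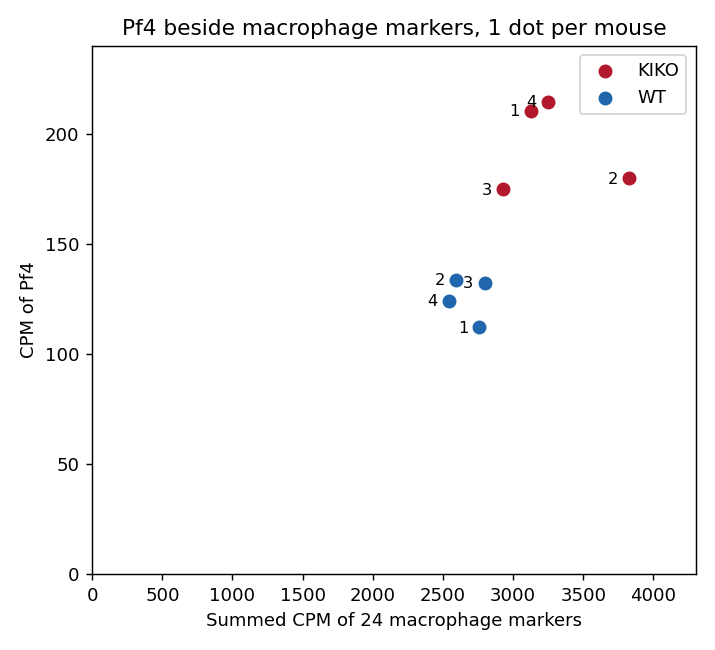
CPM of Pf4 (vertical axis) against the summed CPM of 24 macrophage markers (horizontal axis), both from 0, with a numbered dot for each KIKO (red) and WT (blue) mouse. KIKO mice lie at 2930 to 3826 CPM of markers and 175 to 215 CPM of Pf4, and all WT mice lie below them on both axes.

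Ligands of CCR1, CCR3 and related CC receptors made up the other abundant group. Of 8 such genes 5 were detected and none passed, with 4 fold changes above 0, 1 below 0 and a median of 0.40. Ccl24 encodes eotaxin-2, a CCR3 ligand that attracts eosinophils. It had 38.0, 32.4, 37.9 and 35.7 CPM in KIKO mice 1 to 4, against 16.2, 25.1, 32.5 and 27.1 CPM in WT mice 1 to 4. The groups overlapped only through KIKO mouse 2 and WT mouse 3. Ccl24 differed by a log2 fold change of 0.52 (standard error 0.18, edgeR adjusted p = 0.174, exact permutation p = 0.0571). It was 0.35 (edgeR adjusted p = 0.366) without WT mouse 1 and 0.66 (edgeR adjusted p = 0.0420) without WT mouse 3. In the fit without WT mouse 3, 654 of 11261 genes passed, against 75 of 11080 with all mice. After an offset for transcript length and GC content the log2 fold change of Ccl24 was 0.40 (edgeR adjusted p = 0.286). Ccl11, eotaxin-1, had 5.28 to 15.2 CPM in KIKO mice and 5.69 to 8.71 CPM in WT mice. Ccl26, the remaining eotaxin gene, had no count.

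Ccl5 encodes RANTES, made by T cells, natural killer cells and macrophages. Its level was 22.4, 16.4, 13.9 and 12.6 CPM in KIKO mice 1 to 4, against 7.29, 13.0, 12.0 and 10.4 CPM in WT mice 1 to 4. KIKO mouse 4 lay below WT mouse 2, and the other 3 KIKO mice lay above every WT mouse. For Ccl5 the log2 fold change was 0.61 (standard error 0.24, edgeR adjusted p = 0.224, exact permutation p = 0.0571). After an offset for transcript length and GC content it was 0.43 (edgeR unadjusted p = 0.0864, adjusted p = 0.428). T and NK cell markers, 16 in the table with 5 tested and none passed or at 0, summed to 36.9 to 56.8 CPM in KIKO mice and 33.0 to 38.2 CPM in WT mice. Their part in the Ccl5 values was not tested.

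Ccl6, a CCR1 ligand of rodent myeloid cells, was the most abundant gene of the family. It had 372, 741, 377 and 483 CPM in KIKO mice 1 to 4, against 412, 326, 379 and 375 CPM in WT mice 1 to 4. KIKO mice 2 and 4 exceeded all WT mice, and KIKO mice 1 and 3 lay within their range. Its log2 fold change was 0.40 (standard error 0.19, edgeR adjusted p = 0.311), and 0.14 without KIKO mouse 2. Ccl9, its neighbour on chromosome 11 and also a CCR1 ligand, had 82.2, 151, 85.2 and 89.6 CPM in KIKO mice 1 to 4, against 179, 113, 108 and 118 CPM in WT mice 1 to 4. KIKO mouse 2 and WT mouse 1 stood apart within their groups, and 3 of 4 KIKO mice lay below every WT mouse. The log2 fold change of Ccl9 was -0.35 (standard error 0.20, edgeR adjusted p = 0.420). It was -0.59 without KIKO mouse 2 (edgeR adjusted p = 0.134) and -0.15 without WT mouse 1 (edgeR adjusted p = 0.776). Cd163, a scavenger receptor of resident macrophages, was likewise highest among KIKO mice in KIKO mouse 2 (219 CPM). Among WT mice Cd163 was highest in WT mouse 1 (180.4 CPM). Not all macrophage markers had this order, as Lyz2 (226 CPM) and Folr2 (37.4 CPM) were lowest among WT mice in WT mouse 1. The part of macrophages in the Ccl9 values was not tested. Ccl3 and Ccl4, in the same cluster (chromosome 11, 83525778 to 83664683), were not detected, with 3 and 13 counts in all 8 libraries together.

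CCR2 ligands draw monocytes from blood. Of 4 genes listed as such only Ccl8 was detected, and which receptor mouse CCL8 uses was not tested. Ccl2, Ccl7 and Ccl12 were not detected. Ccl2, the main monocyte chemoattractant, had 5, 4, 12 and 6 counts in KIKO mice 1 to 4, against 6, 2, 2 and 7 counts in WT mice 1 to 4, so that 3 of 4 KIKO values lay within the WT range. Ccl2 was below the filter of the edgeR test, and without that filter it did not pass. At this depth that does not show that its level was alike in both genotypes. Ccl8 had 31.0, 48.0, 26.6 and 32.5 CPM in KIKO mice 1 to 4, against 31.7, 56.6, 47.5 and 36.8 CPM in WT mice 1 to 4. The groups overlapped, and the difference was -0.33 on the log2 scale (standard error 0.20, edgeR adjusted p = 0.447). It was -0.52 without KIKO mouse 2 and -0.17 without WT mouse 2. After an offset for transcript length and GC content the log2 fold change of Ccl8 was -0.54 (edgeR adjusted p = 0.232).

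CXCR2 ligands, which attract neutrophils, were not detected at all by the counting rule. Cxcl3 and Cxcl15 had no count, Cxcl5 had 1 count in all, and Cxcl1 and Cxcl2 had 14 and 21 counts over the 8 libraries. The receptors Cxcr1 and Cxcr2 had 0 and 1 count. Markers of neutrophils were likewise low, with 9 in the table, 1 tested, none passed, Ltf and Ly6g at 0 and sums of 12.9 to 21.4 CPM in KIKO mice and 10.1 to 25.1 CPM in WT mice. A count of 0 allows up to 3 counts per library, or 0.879 to 1.20 CPM, and covers counting error only.

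Cxcl9, an interferon-gamma-induced CXCR3 ligand, had 50.5, 24.8, 57.7 and 43.4 CPM in KIKO mice 1 to 4, against 38.7, 39.7, 44.2 and 39.5 CPM in WT mice 1 to 4. The KIKO mice spread on both sides of the WT mice, and the log2 fold change was 0.13 (standard error 0.20, edgeR adjusted p = 0.789). It was -0.02 without KIKO mouse 3. Cxcl10, another such ligand, was not detected.

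Homeostatic CXC ligands gave no gene that passed. Cxcl12, the CXCR4 ligand that holds haematopoietic cells in their niche and is made by stromal and endothelial cells, had 87.5, 78.3, 93.6 and 87.3 CPM in KIKO mice 1 to 4, against 158, 109.9, 58.6 and 78.4 CPM in WT mice 1 to 4. All KIKO values lay inside the wider WT range. The log2 fold change of -0.22 (standard error 0.22, edgeR adjusted p = 0.665) was 0.07 without WT mouse 1. Cxcl13, which attracts B cells through CXCR5, was the most variable gene of the 23, with 1.98, 29.6, 10.04 and 11.4 CPM in KIKO mice 1 to 4, against 19.02, 12.7, 1.67 and 9.38 CPM in WT mice 1 to 4. Each group held a mouse under 2 CPM, and the log2 fold change was 0.26 with a standard error of 0.57. B cell markers (9 in the table, 6 tested, none passed or at 0) summed to 249 to 558 CPM in KIKO mice and 313 to 497 CPM in WT mice, mostly from Ighm. Without Ighm they summed to 17.8, 82.3, 29.2 and 41.6 CPM in KIKO mice 1 to 4, against 45.6, 54.2, 18.1 and 32.8 CPM in WT mice 1 to 4. That sum, like Cxcl13, was lowest in KIKO mouse 1 and WT mouse 3 and highest, among KIKO mice, in KIKO mouse 2. The part of B cells in Cxcl13 was not tested. Cxcl14 had 1.98 to 4.69 CPM in KIKO mice and 2.85 to 4.54 CPM in WT mice. Cxcl16, the transmembrane CXCR6 ligand, had 17.2 to 21.1 CPM in KIKO mice and 16.4 to 21.5 CPM in WT mice, and its 95% interval of the log2 fold change was -0.27 to 0.43.

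Of 18 lymphoid and skin-type CC ligand genes, 13 had no count, among them Ccl19, Ccl20, Ccl21a and Ccl21b, and Ccl17 and Ccl22 were below the detection rule. Ccl19, Ccl21 and Ccl27 have near-identical copies in the genome, 7 of them on scaffolds, so reads shared between copies may have been left uncounted. Ccl25, the CCR9 ligand of thymus and gut, had 4.62, 4.80, 4.21 and 3.81 CPM in KIKO mice 1 to 4, against 8.24, 4.24, 6.02 and 7.37 CPM in WT mice 1 to 4. WT mouse 2 lay within the KIKO range and the other 3 WT mice lay above it. The estimate for Ccl25 was -0.57 on the log2 scale (standard error 0.29, edgeR adjusted p = 0.350). Ccl25 overlaps Elavl1 on the other strand, and Ccl27a, with 11.01 to 14.9 CPM in KIKO mice and 7.93 to 15.4 CPM in WT mice, overlaps the more abundant Il11ra1, so reads may be shared if strand was not used.

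Among receptors, Ackr3 came closest to passing. ACKR3 is an atypical receptor that takes up CXCL12. Its gene (chromosome 1, 90203980 to 90216751) had 53.1, 42.8, 48.6 and 46.3 CPM in KIKO mice 1 to 4, against 39.0, 31.5, 30.8 and 32.8 CPM in WT mice 1 to 4. All KIKO mice lay above all WT mice. Means were 47.7 ± 4.35 CPM in KIKO mice and 33.5 ± 3.74 CPM in WT mice (SD, n = 4 each), or 0.51 on the log2 scale (standard error 0.14, edgeR adjusted p = 0.0943, exact permutation p = 0.0286). DESeq2 gave an adjusted p of 0.0466, and this was the only 1 of 18 alternatives in which Ackr3 passed. The highest adjusted p was 0.253 (edgeR without WT mouse 2), and it was 0.117 with the length and GC offset (edgeR). Of 12 blood endothelium markers, all tested, 0 had a fold change above 0, 1 passed (Robo4, lower in KIKO mice) and none was at 0. They summed to 582 to 947 CPM in KIKO mice and 879 to 1161 CPM in WT mice. Markers of fibroblasts and adipose progenitors (12 tested, 1 passed, Cd248, higher in KIKO mice, none at 0) summed to 4437 to 5215 CPM in KIKO mice and 3779 to 4256 CPM in WT mice. Without Dcn, the most abundant, they overlapped (1825 to 2178 CPM in KIKO mice and 1779.5 to 2001 CPM in WT mice). The part of either list in Ackr3 was not tested.

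Ackr1, the Duffy receptor that carries chemokines across venular endothelium and sits on red blood cells, had 9.90, 6.79, 10.7 and 7.03 CPM in KIKO mice 1 to 4, against 2.54, 8.48, 7.03 and 5.02 CPM in WT mice 1 to 4. The groups overlapped, and WT mouse 1 was lowest. The estimate for Ackr1 was 0.57 on the log2 scale (standard error 0.32, edgeR adjusted p = 0.403), and 0.33 without WT mouse 1. Ackr1 overlaps Cadm3 on the same strand. Ackr2, which scavenges inflammatory CC chemokines, had 2.97 to 6.79 CPM in KIKO mice and 3.68 to 6.97 CPM in WT mice. Ackr4 was under the detection rule with 62 counts in all.

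None of the tested signalling receptors passed. Ccr2, the receptor of inflammatory monocytes, had 39.6, 44.4, 39.2 and 34.9 CPM in KIKO mice 1 to 4, against 26.3, 37.9, 38.5 and 28.1 CPM in WT mice 1 to 4. KIKO mouse 4 lay below WT mice 2 and 3, and the other 3 KIKO mice lay above all WT mice. The log2 fold change was 0.27 (standard error 0.16, edgeR adjusted p = 0.426), and 0.18 without WT mouse 1. Its cluster on chromosome 9 (123678439 to 124147699) holds 8 receptor genes, of which 4 were detected. Ccr1 had 1.94 to 4.40 CPM in KIKO mice and 2.12 to 4.35 CPM in WT mice. Cxcr6, a receptor of tissue T cells that binds CXCL16, had 3.56 to 5.99 CPM in KIKO mice and 2.34 to 5.02 CPM in WT mice, with reads possibly shared with the overlapping Fyco1. Cx3cr1, the fractalkine receptor of monocytes and macrophages, had 4.80 to 11.7 CPM in KIKO mice and 5.36 to 8.78 CPM in WT mice. It overlaps several genes, among them Gorasp1 on the same strand and Wdr48 on the other, so reads may be shared. Cxcr4 had 4.80 to 9.39 CPM in KIKO mice and 4.69 to 9.19 CPM in WT mice.

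**Figure D3:**
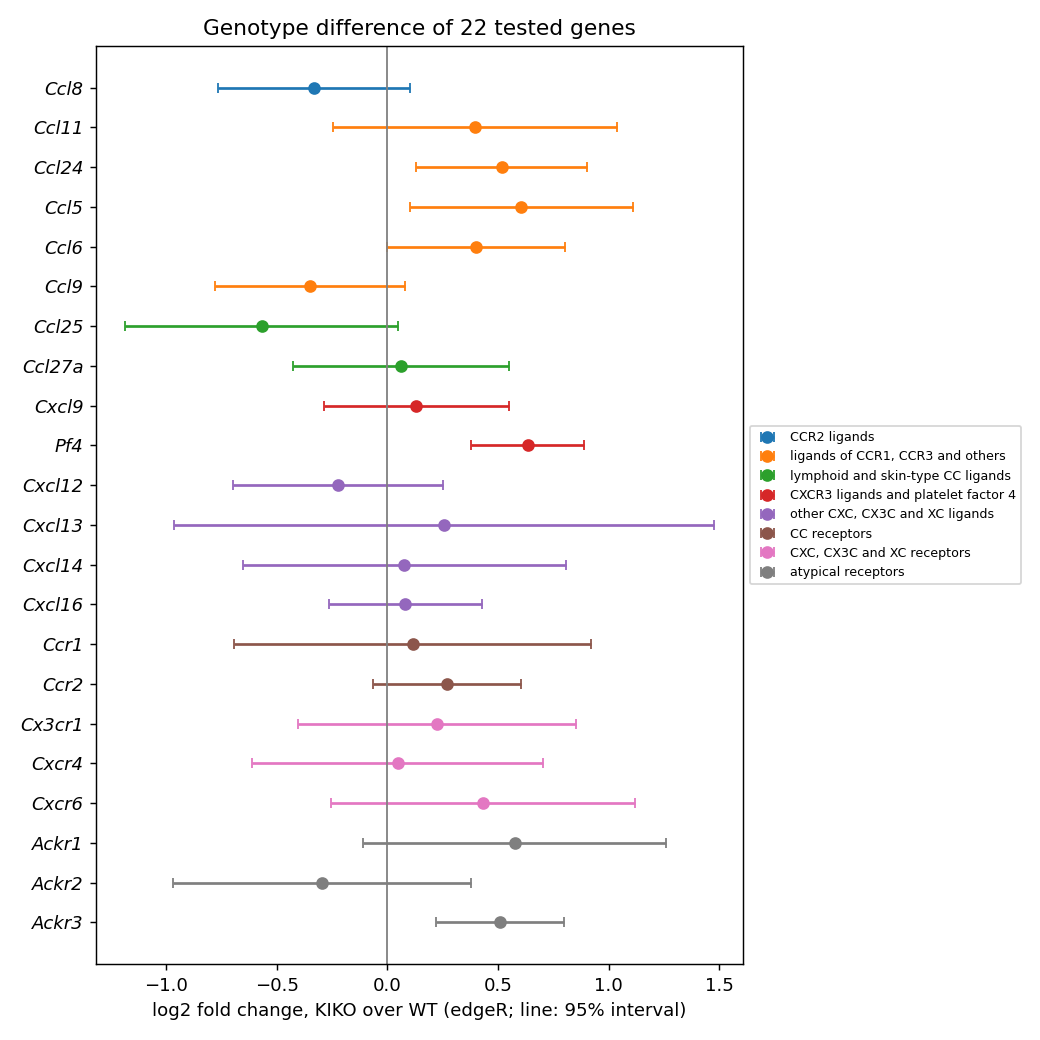
Log2 fold change of KIKO over WT mice (horizontal axis) for 22 of the 23 tested genes, coloured by role, with 95% intervals from edgeR as lines. Points of 5 genes lie below 0, and the interval of Pf4 runs from 0.38 to 0.89.

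Intervals were wide for the less abundant genes, so the data do not show that these receptors were alike in both genotypes. The log2 fold change of Ccr1 had a 95% interval of -0.69 to 0.92 and that of Cxcr4 one of -0.61 to 0.70. Summed over its 46 genes, the ligand level was 957, 1356, 952 and 1076 CPM in KIKO mice 1 to 4, against 1029, 895, 871 and 884 CPM in WT mice 1 to 4, with KIKO mouse 2 highest. Receptors, 23 genes, summed to 141, 147, 150.3 and 128 CPM in KIKO mice 1 to 4, against 111, 123, 115 and 99.5 CPM in WT mice 1 to 4. Receptor sums did not overlap between the groups, but without Ackr3 they did (81.7 to 104 CPM in KIKO mice and 66.6 to 91.2 CPM in WT mice). No test was run on these sums.

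**Figure D4:**
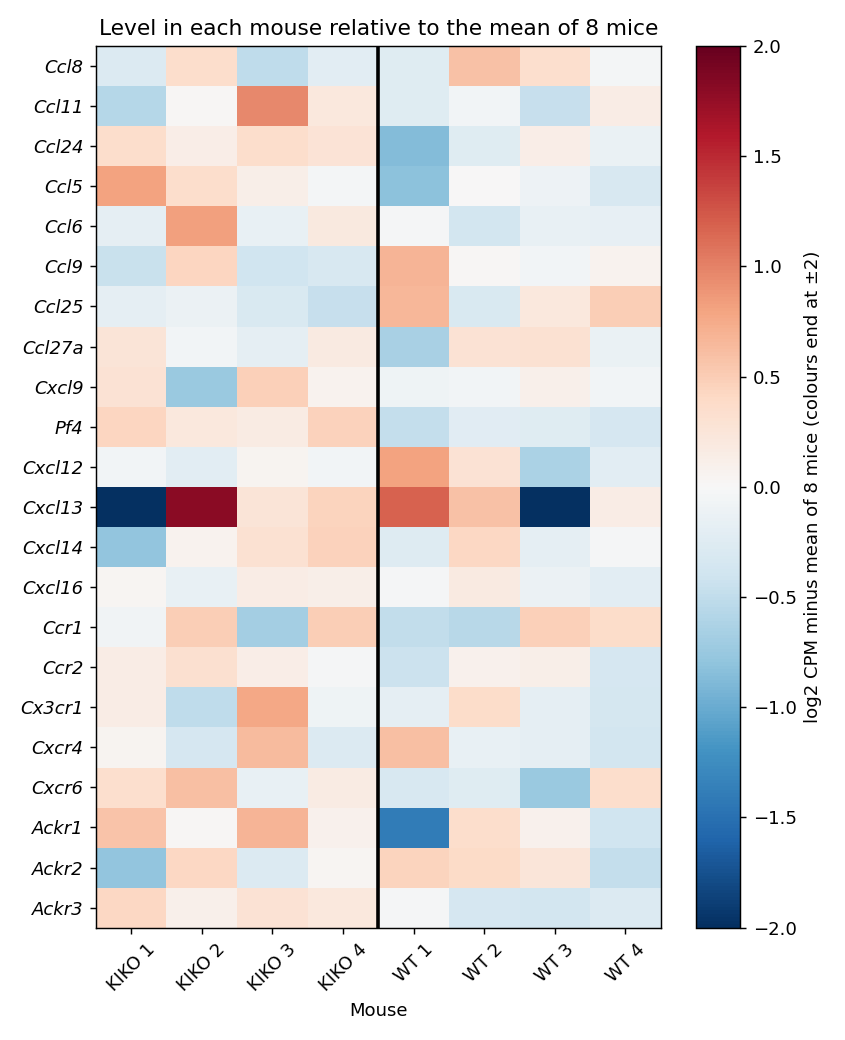
Log2 CPM of 22 of the 23 tested genes (rows, by role) in each KIKO mouse (left of the black line) and each WT mouse (right), minus the mean of the 8 mice. Colours run from blue (lower) to red (higher) and end at 2 log2 units, which Cxcl13 reaches in KIKO mouse 1 and WT mouse 3.

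Relative to exon length, so that genes can be ranked, Ccl6 (241 CPM per kb of exon, mean of 8 mice) and Pf4 (222) stood first, then Ccl8 (76.0), Ccl9 (38.0) and Ccl24 (23.6). Receptor levels per kb were lower, led by Ackr3 (12.1) and Ccr2 (5.34). Ccl6, Pf4 and Ccl9 together made up 64.0% to 79.0% of all ligand CPM in the 8 libraries. If libraries were made from transcript ends, as the labels' digital kit may have done, division by length understates long genes such as Cxcl12.

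**Figure D5:**
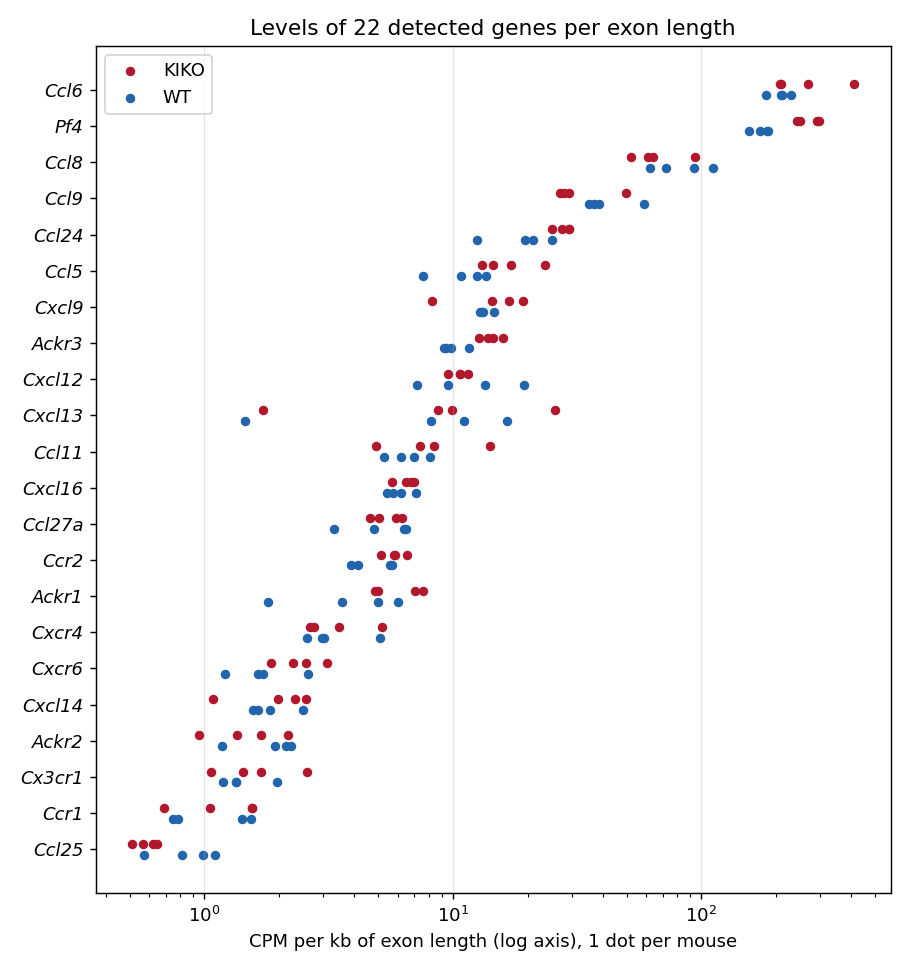
CPM per kb of exon length (horizontal log axis) of 22 of the 23 detected genes in KIKO (red) and WT (blue) mice, 1 dot per mouse, ordered by mean level. Levels run from 0.727 for Ccl25 to 241 for Ccl6, and only Pf4 and Ackr3 show groups that are apart.

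Genes around the family were read from lists. Of 44 tested genes of signalling downstream of chemokine receptors, none passed (28 above 0, median log2 fold change 0.04), and of 26 tested inducers of chemokine transcription none passed (18 above 0, median 0.10). Il1b, Il6 and Tnf, cytokines that induce chemokines, were below the filter. Of 22 tested genes that build or carry the glycosaminoglycans on which chemokines are displayed, 1 was lower, Hspg2, which encodes the basement membrane proteoglycan perlecan, with 71.0, 86.7, 87.8 and 95.2 CPM in KIKO mice 1 to 4, against 137, 153, 124 and 147 CPM in WT mice 1 to 4 (log2 fold change -0.72, standard error 0.13, edgeR adjusted p = 0.0326). Of 13 tested proteases that cut or shed chemokines, 2 were higher, Cpa3 (log2 fold change 1.58, standard error 0.23, edgeR adjusted p = 0.0255) and Cma1 (1.22, standard error 0.19, edgeR adjusted p = 0.0255). Both are proteases of mast cell granules. Of 7 tested mast cell markers, these 2 passed, 3 had a fold change above 0 and the median log2 fold change was -0.34, with Kit, the stem cell factor receptor, at -1.24 (edgeR adjusted p = 0.0942). None of 13 tested chemokine-like proteins and their receptors passed. Rarres2, which encodes the adipose chemoattractant chemerin, had 703, 544, 542 and 606 CPM in KIKO mice 1 to 4, against 439.7, 346, 438 and 368 CPM in WT mice 1 to 4, without overlap and with an edgeR adjusted p of 0.0615.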

How the data were processed

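Whole vWAT from 4 KIKO and 4 WT mice was sequenced, 1 library per mouse. The authors deposited raw counts per gene and log2 values, which are log2 of count over a size factor, plus 1. They trimmed reads with Trimmomatic, mapped them to GRCm38 with HISAT2 and quantified with StringTie. A digital mRNA-seq service is named in the labels but a stranded mRNA kit in the methods, so strand and 3' bias are unsettled. Symbols came from GENCODE for GRCm38.

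Counts were tested with edgeR 4.0.16 quasi-likelihood fits (R 4.3.3, TMM, low-count filter by genotype, no covariate) and Benjamini-Hochberg adjustment over 11080 genes, checked on simulated counts. CPM use the TMM-scaled library sizes. A two-sided exact permutation test over 70 assignments used log2(CPM + 1). Named genes were those that passed, the 8 smallest p-values, the 8 highest levels and detected genes without overlap. Other genes (Cxcl13, Rarres2, undetected genes and markers) were named after their values were seen. The genes and lists were chosen with earlier results of these data known. Alternatives were other scalings and filters, DESeq2 1.42.0, limma 3.58.1, a replicate block, a length and GC offset (mgcv 1.9.3) and leaving out each mouse. Genes below the filter were fitted only in the alternative without it (50 of the family, of which Pf4 passed). Sums without the most abundant gene of a list were added after seeing the data. The values of the targeted gene and of 1 receptor gene are not reported here.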

Additional observations from a re-analysis of the deposited data

Results flagged for a closer look

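Of 46 groups of 4 mice examined (23 genes, KIKO and WT), 3 held a mouse far from the other 3, and chance alone marks about 1 group in 20. Ccl9 was 151 CPM in KIKO mouse 2, with the other KIKO mice at 82.2 to 89.6 CPM. Ccl9 was also high in WT mouse 1, at 179 CPM, with the other WT mice at 108 to 118 CPM. Cxcr4, the CXCL12 receptor, was 9.19 CPM in WT mouse 1, with the other WT mice at 4.69 to 5.45 CPM.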

How the results depend on the processing

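Pf4 stayed higher in KIKO mice under all 18 alternatives (log2 fold change 0.44 to 0.69) and passed in 9 of them, with adjusted p from 0.000168 (DESeq2) to 0.169 (edgeR without KIKO mouse 4). Of the 23 genes, 2 passed with DESeq2 (Pf4 and Ackr3, 10 with an adjusted p), 0 with the replicate block (edgeR, 4 at an unadjusted p under 0.05) and 0 with the length and GC offset (edgeR, 5). Leaving out a mouse gave 0 to 2 (Ccl24 and Pf4 without WT mouse 3). Among all genes edgeR passed 75, against 382 without the low-count filter, 259 with DESeq2, 40 with limma-voom, 45 with limma-trend, 0 with the block (1427 at an unadjusted p under 0.05), 32 with the offset and 0 to 654 when a mouse was left out. Same-numbered mice did not deviate together (correlations -0.152 to 0.0285), so the numbers were not taken as pairs. Leaving out a mouse gave log2 fold changes of -0.0192 (without KIKO mouse 3, reversed) to 0.32 for Cxcl9 and of -0.41 to 0.0730 (without WT mouse 1, reversed) for Cxcl12. The ratio of Pf4 to macrophage markers differed by 0.45 with 6 markers, a sum without the 3 markers that passed. When a mouse was left out it differed by 0.27 to 0.45, the latter without KIKO mouse 2. Apart from Cxcl9, Cxcl12 and the calls above, the causes of which were not tested, the 12 named genes kept direction and side of the threshold. Single counts were worth up to 0.400 CPM, which limits the undetected genes.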

Other observations

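Cxcr3, the receptor of Cxcl9 and Cxcl10 on T and NK cells, was below the detection rule, with 9, 9, 8 and 6 counts in KIKO mice 1 to 4, against 5, 4, 5 and 1 counts in WT mice 1 to 4. Cxcl10 had 8, 3, 9 and 3 counts in KIKO mice 1 to 4, against 0, 3, 3 and 2 counts in WT mice 1 to 4. Ccr6, a receptor of B cells and some T cells, had 0, 13, 1 and 1 counts in KIKO mice 1 to 4, against 7, 7, 0 and 0 counts in WT mice 1 to 4. In Cxcr3 all KIKO counts lay above all WT counts, and Cxcl10 and Ccr6 overlapped. Ccr10, a further undetected receptor gene, had 0, 0, 1 and 0 counts in KIKO mice 1 to 4. WT mice 1 to 4 had 2, 2, 2 and 1 counts of Ccr10. By CPM all KIKO mice lay below all WT mice, but only through library scaling. KIKO mouse 3 (0.324 CPM) and WT mouse 4 (0.335 CPM) tied at 1 count. Cxcr3, Cxcl10, Ccr6 and Ccr10 were chosen after their values were seen and were below the filter of the edgeR test. Without that filter none of them passed. The share of groups apart among all genes below the filter was not computed.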
